A study of Mus musculus with 34 samples.

Results

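The genes described here are 7 acute-phase and alarmin genes of the mouse, measured by bulk RNA-seq in islets of Langerhans. They are the serum amyloid A genes Saa3, Saa1 and Saa2, the haptoglobin gene Hp, the lipocalin gene Lcn2, and the S100 genes S100a8 and S100a9. They were picked by name out of 48709 genes in the count table. The names were chosen from earlier results on these libraries, in which the genes stood out at 5 days, so their values at that time are a description and carry no test. The study followed islets after a toxin had removed some of the beta cells.

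The genotype label of every mouse was RIP-DTR HTZ. RIP-DTR places the diphtheria toxin (DT) receptor under the rat insulin promoter, and the untreated mice carried it too. Mice labelled DT 5 DPA (n = 4 libraries) and DT 30 DPA (n = 4) had received DT and were sampled 5 and 30 days after ablation, and CTRL mice (n = 3) had received no treatment. At 10 weeks the groups were DT SD (n = 4), STZ SD (n = 4) and CTRL SD (n = 3) on the diet labelled SD, and DT HFD (n = 3), STZ HFD (n = 4) and CTRL HFD (n = 4) on the diet labelled HFD. STZ is streptozotocin, a toxin that beta cells take up, given at 75 mg/kg. The labels give no age, no day for CTRL, and no statement that replicates come from separate animals, so p-values measure the spread between these libraries. The total was between 11083117 and 18918348 counts per library.

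Serum amyloid A proteins and haptoglobin are secreted during the acute-phase response, in which cytokines such as interleukin 1 and interleukin 6 raise their transcription, mainly in the liver. Saa3 is the serum amyloid A gene of the mouse that inflamed tissue and macrophages use outside the liver. Lipocalin 2 binds bacterial siderophores and withholds iron, haptoglobin binds free haemoglobin, and S100A8 and S100A9 form calprotectin, a calcium- and zinc-binding complex that neutrophils and monocytes release as an alarm signal.

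The 3 serum amyloid A genes lie together on chromosome 7, at chr7:46711998-46715700 (Saa3, minus strand), chr7:46740497-46742980 (Saa1, minus strand) and chr7:46751790-46754313 (Saa2, plus strand) of GRCm38. S100a8 (chr3:90668978-90670035, plus strand) and S100a9 (chr3:90692632-90695721, minus strand) are neighbours on chromosome 3, Lcn2 lies at chr2:32384633-32388252 (minus strand) and Hp at chr8:109575128-109579172 (minus strand). All 7 are protein-coding in the GENCODE M21 annotation and 0 of them overlap another gene. The Saa1 and Saa2 transcripts were identical at 94.4% of aligned bases, so that reads could be assigned to either copy, and the counts of each are uncertain. Whether counting used the strand is not stated in the labels or headers.

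The promoter windows of Saa3, Saa1, Saa2 and Lcn2 are shown because these genes respond to the same cytokines, and to set the windows of Saa1 and Saa2 side by side. Each runs 5′ to 3′ on the gene's own strand, from 250 bases before the RefSeq start to 50 bases after it (build GRCm38.p6), and capitals mark matches to the C/EBP motif TTNCNNAA on either strand. The windows are chr7:46715627-46715926 (Saa3), chr7:46742931-46743230 (Saa1), chr7:46751583-46751882 (Saa2) and chr2:32387690-32387989 (Lcn2).
Saa3: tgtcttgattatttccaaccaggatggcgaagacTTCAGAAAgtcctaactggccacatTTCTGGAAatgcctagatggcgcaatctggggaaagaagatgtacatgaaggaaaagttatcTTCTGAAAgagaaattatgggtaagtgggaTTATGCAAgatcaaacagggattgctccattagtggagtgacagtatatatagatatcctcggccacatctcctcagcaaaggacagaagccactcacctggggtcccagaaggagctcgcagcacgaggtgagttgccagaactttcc
Saa1: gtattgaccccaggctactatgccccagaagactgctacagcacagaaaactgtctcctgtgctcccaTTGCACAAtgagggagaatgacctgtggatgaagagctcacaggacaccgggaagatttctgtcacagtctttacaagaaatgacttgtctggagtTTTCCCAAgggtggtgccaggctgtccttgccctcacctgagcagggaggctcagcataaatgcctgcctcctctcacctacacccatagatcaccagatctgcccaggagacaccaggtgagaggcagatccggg
Saa2: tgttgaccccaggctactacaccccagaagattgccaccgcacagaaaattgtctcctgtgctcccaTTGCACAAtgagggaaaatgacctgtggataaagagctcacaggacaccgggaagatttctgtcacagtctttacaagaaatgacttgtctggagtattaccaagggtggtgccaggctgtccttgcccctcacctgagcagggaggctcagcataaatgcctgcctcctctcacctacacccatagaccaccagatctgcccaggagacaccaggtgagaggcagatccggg
Lcn2: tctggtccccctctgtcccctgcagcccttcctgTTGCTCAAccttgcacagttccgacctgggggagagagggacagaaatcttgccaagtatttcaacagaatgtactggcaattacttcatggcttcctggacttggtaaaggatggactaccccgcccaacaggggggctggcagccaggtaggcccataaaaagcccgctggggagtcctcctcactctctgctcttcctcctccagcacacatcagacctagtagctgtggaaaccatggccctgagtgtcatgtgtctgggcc

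The Saa1 and Saa2 windows were identical at 96.0% of 299 aligned bases, against 78.0% of 246 for Saa3 and Saa1. RefSeq windows were found for 6 of the 7 genes, all but Hp. The C/EBP motif had at least 1 match in each of the 6 windows, against 40.7% of all 32851 windows of this length, and the Saa3 window held 4 matches between 216 and 92 bases before the start. The Saa1 and Saa2 windows share the match TTGCACAA, so the 6 windows are not separate cases. The difference from all windows was not tested. The NF-kB consensus and the STAT motif TTCNNNGAA each had 0 matches in the 6 windows, against 4.5% and 8.3% of all windows. The letters TATAAA began 30 bases before the start in the S100a8 window and at the start itself in the S100a9 window, and were in 13.6% of all windows. These are matches of letters and not measured binding.

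Saa3 was the member with the highest level at 5 DPA. It had 2695, 2530, 3464 and 2251 CPM (counts scaled to a common library size) in replicates 1 to 4 at 5 DPA, 24.3, 1.47, 0.948 and 2.11 CPM at 30 DPA, and 0.116, 1.14 and 1.72 CPM in CTRL. All 4 libraries at 5 DPA stood above all 29 other libraries, of which the highest was DT 30 DPA replicate 1. The CTRL values rest on 2, 19 and 28 counts. In bulk RNA, more cells of a type and more RNA per cell cannot be told apart. With the counts of each group pooled, Saa3 was 2763-fold higher at 5 DPA than in CTRL. By the authors' TPM, which allow for gene length, Saa3 was the 48th, 40th, 49th and 54th gene of the 4 libraries at 5 DPA and the 18485th, 14845th and 14268th in CTRL.

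Saa1 and Saa2, the serum amyloid A genes made mainly by the liver and also by the gut lining, stayed far below Saa3. Saa1 had 46, 15, 44 and 58 counts at 5 DPA (3.02, 1.06, 3.47 and 3.46 CPM), 0, 8, 2 and 0 counts at 30 DPA, and 0 counts in each CTRL library. The pooled level of Saa1 was at least 46.4-fold higher at 5 DPA than in CTRL, taking 3 counts over the CTRL group as the limit that a count of 0 allows. Saa2 had 41, 4, 0 and 41 counts at 5 DPA, 0, 6, 0 and 0 at 30 DPA, and 0, 2 and 2 in CTRL. Saa2 was thus high in replicates 1 and 4 only, and the 5 DPA and CTRL ranges overlapped. The pooled ratio of Saa2 at 5 DPA to CTRL was 18.4 (95% exact interval of counting error alone, 6.91 to 68.9).

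Hp, whose product captures free haemoglobin, had 91.2, 51.7, 45.2 and 63.3 CPM at 5 DPA, 4.77, 1.34, 2.57 and 1.60 CPM at 30 DPA, and 4.40, 0.779 and 1.35 CPM in CTRL. Every library at 5 DPA stood above every other library for Hp, while the 30 DPA and CTRL ranges overlapped. Lcn2, the siderophore-binding lipocalin, had 92.8, 110.3, 82.0 and 84.6 CPM at 5 DPA, 1.10, 0.511, 2.84 and 2.11 CPM at 30 DPA, and 1.27, 0.959 and 7.25 CPM in CTRL. For Lcn2 too the 5 DPA libraries stood above all others, and the highest of the rest was STZ HFD replicate 1 at 26.2 CPM.

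S100a8, the smaller calprotectin subunit, had 35.9, 6.85, 15.1 and 27.7 CPM at 5 DPA, 1.23, 0.447, 2.03 and 3.20 CPM at 30 DPA, and 0.174, 1.08 and 0.676 CPM in CTRL. S100a9, its partner, had 71.5, 8.19, 27.4 and 43.9 CPM at 5 DPA, 4.90, 1.98, 4.87 and 9.03 CPM at 30 DPA, and 1.27, 2.16 and 0.492 CPM in CTRL. The 5 DPA libraries were above all others for S100a8. For S100a9 they were above CTRL but overlapped 30 DPA, because replicate 2 at 5 DPA lay below replicate 4 at 30 DPA.

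**Figure D1:**
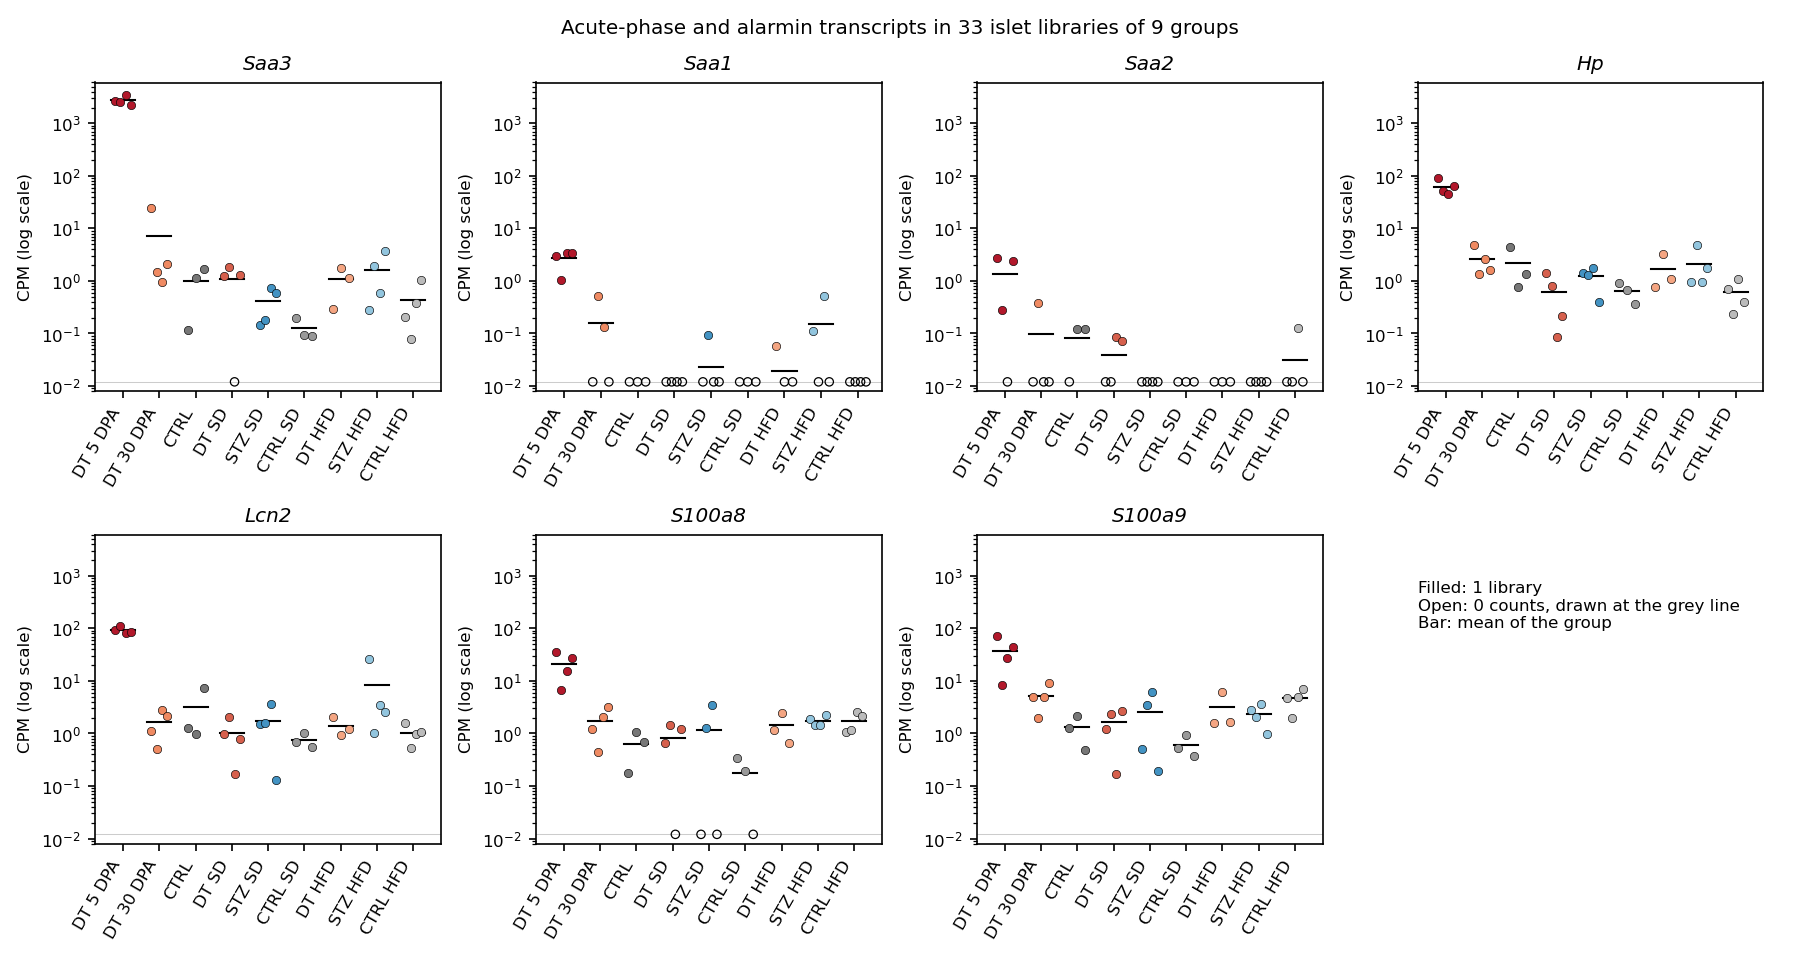
CPM (log scale) of the 7 genes in 33 libraries of 9 groups, with 1 point per library, a bar at the mean of each group and open circles for libraries with 0 counts. Saa3 sits between 2251 and 3464 CPM in the 4 libraries at 5 DPA and at or below 24.3 CPM in the other 29.

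The fitted log2 fold changes between DT 5 DPA and CTRL were 11.43 (SE 1.38) for Saa3, 5.04 (SE 1.17) for S100a8, 4.87 (SE 0.98) for Lcn2, 4.84 (SE 0.79) for Hp and 4.84 (SE 0.99) for S100a9. Of the 7 genes, 6 were tested; Saa2 was under the filter on low counts, and Saa1 passed it only through the libraries at 5 DPA. All 6 passed edgeR's threshold, an adjusted p below 0.05, against 5.39% of the 17616 genes tested, but the genes were selected on this contrast and the count supports nothing. Between DT 30 DPA and DT 5 DPA the log2 fold changes were -8.56 for Saa3, -5.81 for Lcn2, -4.60 for Hp, -3.997 for Saa1, -3.63 for S100a8 and -2.86 for S100a9, and the same 6 passed, against 30.5% of all genes. Both contrasts use the 5 DPA libraries, and the same reservation holds.

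By the authors' TPM, the order of the 7 genes at 5 DPA was Saa3 (2367 ± 298 TPM, SD, n = 4), S100a9 (166 ± 124), Hp (90.0 ± 33.2), Lcn2 (80.7 ± 16.5), S100a8 (70.6 ± 45.1), Saa1 (10.1 ± 3.99) and Saa2 (4.86 ± 5.05). In CTRL it was S100a9 (6.01 ± 4.14 TPM, SD, n = 3), Hp (3.10 ± 2.68), Lcn2 (2.78 ± 3.07), S100a8 (2.23 ± 1.67), Saa3 (0.902 ± 0.725), Saa2 (0.298 ± 0.258) and Saa1 at 0. The ranges of the middle 4 genes overlapped at 5 DPA, so only the places of Saa3 at the top and of Saa1 and Saa2 at the bottom were outside the spread there. Saa3 was 23.1 to 42.5 times Lcn2 in TPM in the 4 libraries at 5 DPA.

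The genes differed in how evenly they were spread over the 4 libraries at 5 DPA. The coefficient of variation of CPM was 13.8% for Lcn2, 19.0% for Saa3, 32.3% for Hp, 41.7% for Saa1, 60.4% for S100a8 and 71.0% for S100a9. S100a8 and S100a9 followed the same order, highest in replicate 1, then 4, then 3, and lowest in replicate 2. Their ratio stayed narrower than either gene: S100a9 was 2.65, 1.59, 2.40 and 2.11 times S100a8 in TPM in replicates 1 to 4, while S100a9 itself spanned 8.73-fold in CPM.

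Cell type markers were summed beside these values. Neutrophil markers summed to 225, 110, 216 and 143 CPM in replicates 1 to 4 at 5 DPA, 12.1 to 20.6 CPM at 30 DPA and 10.1 to 33.4 CPM in CTRL. Of 14 neutrophil markers 12 were tested, and 8 rose and 0 fell between 5 DPA and CTRL; Elane was at 0 in every library of DT 30 DPA and CTRL, and Camp at 0 in CTRL. Macrophage and monocyte markers summed to 5287 to 7792 CPM at 5 DPA, 533 to 1189 CPM at 30 DPA and 757 to 1867 CPM in CTRL, and 10 of 11 tested rose. Fibroblast markers summed to 3146 to 4431 CPM at 5 DPA, 918 to 1165 CPM at 30 DPA and 735 to 1284 CPM in CTRL, and 5 of 8 rose. Markers of hepatocytes, the main source of acute-phase proteins, had sums of 21.0 to 123 CPM at 5 DPA, 27.4 to 132 CPM at 30 DPA and 50.8 to 526 CPM in CTRL, with 0 of 10 higher and 3 lower by the test. In each of these groups the highest hepatocyte sum was in replicate 2, which also had the most gut-lining markers of its group. Whether the hepatocyte sums measure liver RNA was not tested. The part of these cell types in the levels of the 7 genes was not tested.

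Markers of the absorptive gut lining, a tissue that also makes Saa1 and Saa2, summed to 2530, 4151, 34.2 and 1530 CPM in replicates 1 to 4 at 5 DPA. They were over 500 CPM in 8 of 33 libraries of 5 groups, among them DT 30 DPA replicate 2 at 3369 CPM and CTRL replicate 2 at 5999 CPM. Saa3 was at 3464 CPM, Lcn2 at 82.0 CPM, Hp at 45.2 CPM and Saa1 at 3.47 CPM in replicate 3 at 5 DPA, where those markers were lowest, and Saa2 had 0 counts there. CTRL replicate 2, with the markers at 5999 CPM, had 1.14 CPM of Saa3, 0.959 CPM of Lcn2, 0 counts of Saa1 and 2 counts of Saa2. DT 30 DPA replicate 2, with the markers at 3369 CPM, had 1.47 CPM of Saa3, 0.511 CPM of Lcn2, 8 counts of Saa1 and 6 counts of Saa2. STZ SD replicates 1 and 4, with the most of these markers (11270 and 19750 CPM), had 0 counts of Saa1 and of Saa2. DT HFD replicate 1, with the markers at 2473 CPM, had 1 count of Saa1 and 0 counts of Saa2. The part of gut RNA in the levels of these genes was not tested. Beta cell markers summed to 32560 to 122500 CPM at 5 DPA, 126800 to 308100 CPM at 30 DPA and 44810 to 147500 CPM in CTRL, so that islet RNA was present in all of these libraries.

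**Figure D2:**
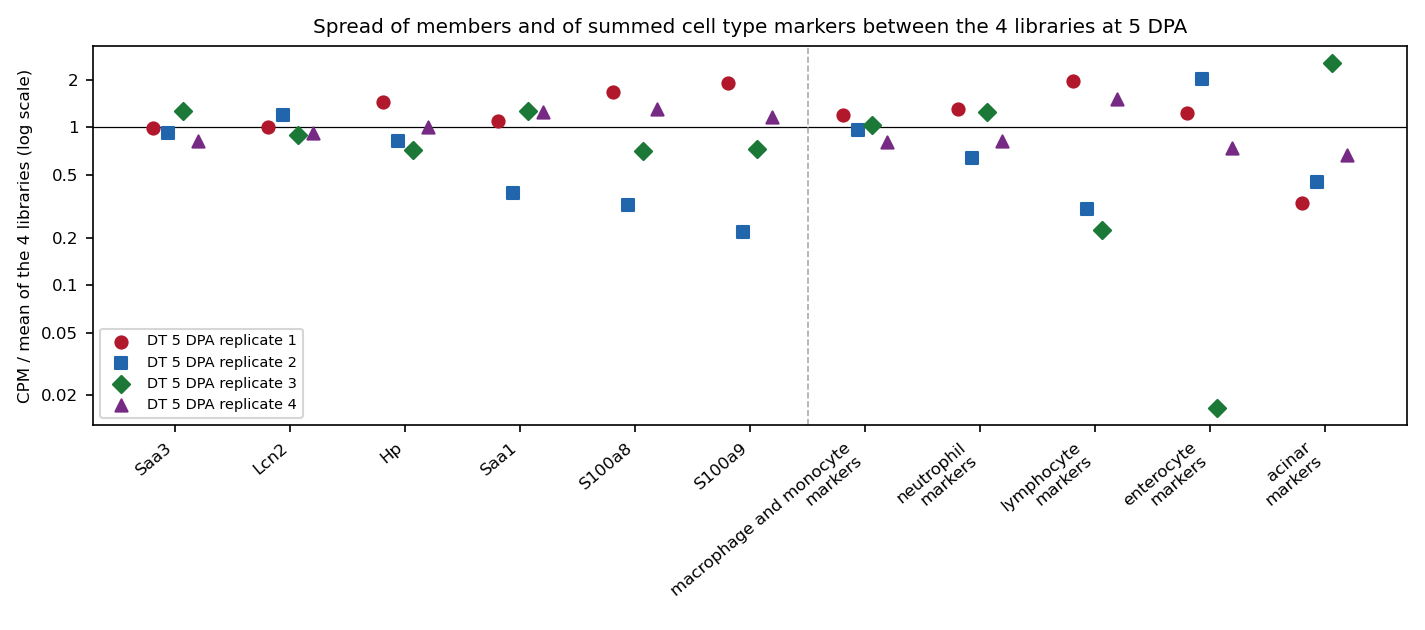
CPM of 6 genes and of summed cell type markers in each of the 4 libraries at 5 DPA, divided by the mean of the 4 (log scale; the line at 1 is the mean). Saa3 and Lcn2 lie close to the line, S100a8 and S100a9 spread widely with replicate 2 lowest, and the enterocyte markers of replicate 3 lie far below the rest.

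Whether genes varied together within a group was asked with the deviations of log2 CPM from the group mean over 33 libraries. The choice of the genes did not use that question. Saa1 entered the pairs and their adjustment although it passed the low-count filter only through the libraries at 5 DPA. It was at 0 counts in 23 of the 29 other libraries, so its pairs are not read. Of 15 pairs of genes, 1 passed the adjustment over pairs: S100a8 and S100a9 (Pearson's r = 0.853, permutation p = 3e-05, adjusted 0.00045; Spearman's rho = 0.812, permutation p = 8e-05, adjusted 0.0012). Without the 2 libraries farthest from the median of S100a8, r was 0.798. The next pair, Lcn2 and S100a8, had r = 0.489 (permutation p = 0.0144, adjusted 0.108) and rho = 0.44 (permutation p = 0.0249, adjusted 0.124). Saa3 and Lcn2, both among the high genes at 5 DPA, had r = -0.017 within groups (permutation p = 0.942, adjusted 0.972; rho = -0.026, permutation p = 0.907, adjusted 0.907).

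Of 36 pairs of a gene with a sum of cell type markers, S100a9 with the neutrophil markers passed in both measures (r = 0.731, permutation p = 5e-05, adjusted 0.0018; rho = 0.710, permutation p = 0.00012, adjusted 0.00432; r = 0.685 without the 2 farthest libraries). Hp with the lymphocyte markers passed by Pearson's r alone (r = 0.569, permutation p = 0.00257, adjusted 0.0463; rho = 0.552, permutation p = 0.00351, adjusted 0.0632; r = 0.498 without the 2 farthest). Hp with the macrophage and monocyte markers had r = 0.611 (permutation p = 0.00609, adjusted 0.0731) and rho = 0.564 (permutation p = 0.00912, adjusted 0.109). S100a8 did not pass with the neutrophil markers, at r = 0.455 (permutation p = 0.019, adjusted 0.147) and rho = 0.468 (permutation p = 0.0164, adjusted 0.148). Nor did S100a9 with the macrophage and monocyte markers (r = 0.478, permutation p = 0.0245, adjusted 0.147) or the lymphocyte markers (r = 0.461, permutation p = 0.0242, adjusted 0.147). Saa1 entered these pairs and their adjustment too, and its pairs are not read. Saa3 with the neutrophil markers had r = 0.020 (permutation p = 0.930, adjusted 0.974; rho = 0.018, permutation p = 0.934, adjusted 0.986).

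**Figure D3:**
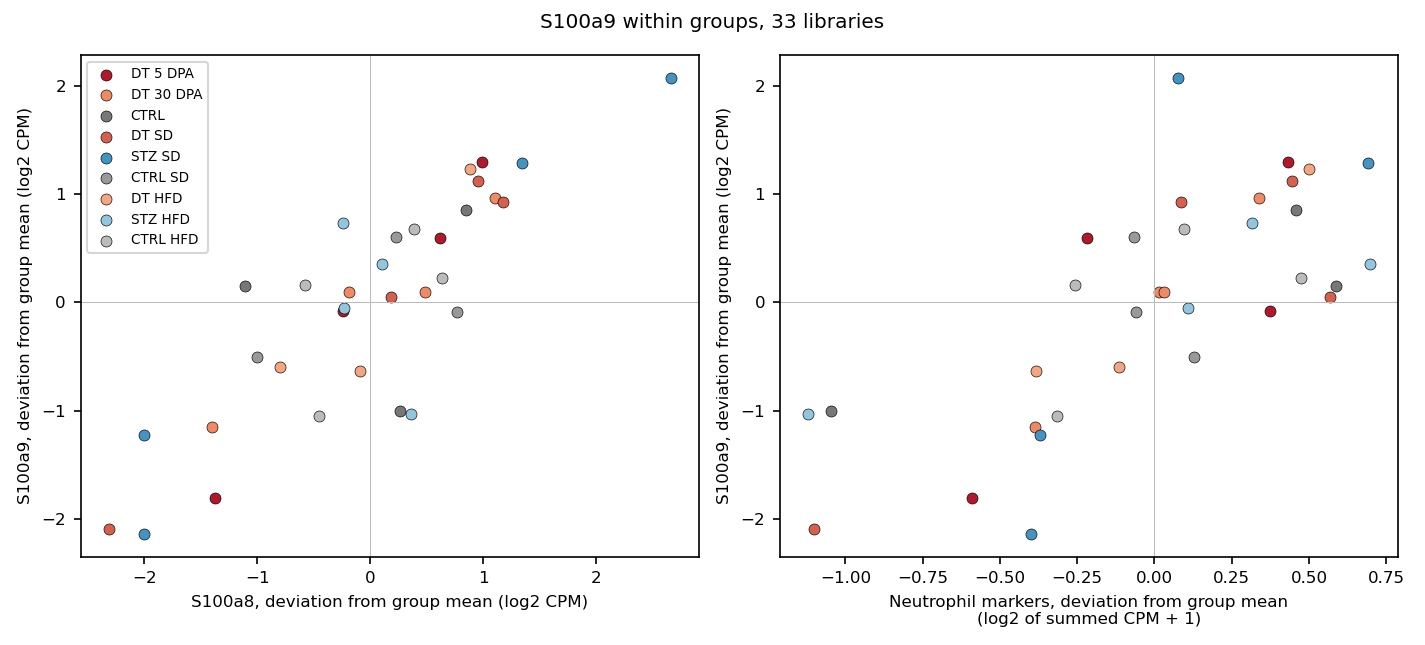
Deviation from the group mean of S100a9 (log2 CPM) in 33 libraries, against that of S100a8 (left) and of the summed neutrophil markers (right), with 1 point per library coloured by group. Libraries above their group's mean in S100a8 or in neutrophil markers tend to be above it in S100a9 (r = 0.853 and 0.731).

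The genes whose log2 CPM over the 33 libraries was most like each member were found by Pearson's r, which here follows mainly the gap between the 5 DPA libraries and the rest and is given as a description. For Saa3 these were Prg4, a secreted proteoglycan (r = 0.952), Slfn4, a Schlafen gene of myeloid cells (0.944), the lysosomal protease gene Ctsd (0.939) and the chemokine gene Ccl6 (0.937). For Hp they were the endosomal receptor gene Tlr13 (r = 0.945), the complement gene C1qb (0.942), the phagosomal metal transporter gene Slc11a1 (0.939) and the thromboxane synthase gene Tbxas1 (0.933). Ctsd, Plod3, Il1f9 and Timp1 were nearest to Saa1 (r = 0.907 to 0.880), which passed the low-count filter only through the libraries at 5 DPA, so they are not read. For S100a9 they were Csf3r, the receptor for granulocyte colony-stimulating factor (r = 0.857), the neutrophil granule gene Ngp (0.850), the neutrophil collagenase gene Mmp8 (0.817) and the cytokine gene Il6 (0.802). Csf3r (r = 0.853) and Ngp (0.813) led for S100a8 too, followed by Tbxas1 and Lilrb4a. For Lcn2 the nearest were Myof, Bgn, Tbxas1 and Timp1, with r between 0.879 and 0.867.

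With the group means taken out, other genes came first. Hp was then nearest to Sirpb1b, Clec12a and Mnda, genes of myeloid cells (r = 0.777 to 0.770), and to Gxylt2 (0.761). Lcn2 was nearest to Gabrp (r = 0.763), Mmp7, an epithelial protease gene (0.751), Epn3 (0.741) and Pdgfd (0.736). The r of the first gene was 0.723 for Saa3 (Prr33), 0.734 for Saa1 (Dpysl2), 0.763 for S100a8 (Atg16l2) and 0.747 for S100a9 (Zfp52). That of Saa1 is not read, for the reason given above. All values of r with the group means taken out were picked as the highest among the tested genes. How high such a pick lies by chance was not tested, so nothing is read from their size.

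Genes that act with the 7 members were read from 5 lists, which were also drawn up with earlier results known. Of all genes, 5.39% were called in DT 5 DPA against CTRL, 669 higher and 280 lower. Among inducing cytokines, receptors and transcription factors, 12 of 27 tested rose at 5 DPA relative to CTRL and 0 fell. Cebpb, which encodes a transcription factor of acute-phase promoters, averaged 127.7 ± 28.6 CPM at 5 DPA and 14.4 ± 1.76 CPM in CTRL (SD, n = 4 and 3), 8.87-fold higher (edgeR adjusted p = 1.9e-09). The cytokine gene Il1b averaged 28.4 ± 12.4 CPM at 5 DPA and 2.22 ± 1.01 CPM in CTRL, 12.7-fold higher (edgeR adjusted p = 4.97e-05). The ranges of both genes were apart, but the share of all genes with ranges apart was not counted, so nothing is read from that. Among receptors and clearance genes, 6 of 13 rose and 0 fell. They included Tlr2 and Tlr4, genes on both lists that encode receptors reported for serum amyloid A and calprotectin (2.86- and 2.73-fold, edgeR adjusted p = 2.46e-05 and 0.000653), the haem-degrading Hmox1 (11.9-fold, 0.000141) and the formyl peptide receptor gene Fpr1 (19.8-fold, 0.00366). Without the libraries rich in gut markers the Hmox1 and Fpr1 calls were lost (edgeR adjusted p = 0.0624 and 0.143).

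Of 18 other acute-phase genes tested, 3 rose and 0 fell at 5 DPA: the lipopolysaccharide co-receptor gene Cd14 (5.55-fold, edgeR adjusted p = 0.000425), the serpin gene Serpina3n (4.68-fold, 0.0357) and the lipopolysaccharide-binding protein gene Lbp (2.37-fold, 0.0468). The Serpina3n and Lbp calls were lost under 7 and 8 of 14 other settings. The median log2 fold change of this list was 0.01, with 9 of 18 genes above 0, against -0.05 over all genes. The fibrinogen genes Fgg and Fgb had values of -8.73 and -4.58 that did not pass (edgeR adjusted p = 0.0796 and 0.0568). Without CTRL replicate 2 the list had 2 genes higher and 3 lower, and by DESeq2 3 higher and 1 lower. Of 11 other S100 genes 1 rose, S100a4, a gene of motile mesenchymal and myeloid cells (3.56-fold, edgeR adjusted p = 0.000579), a share near that of all genes called. Of 8 other alarmins 3 rose, namely Anxa1 (3.10-fold), Lgals3 (4.10-fold) and Il1a (3.86-fold), and Cirbp was 2.16-fold lower (edgeR adjusted p = 0.00338, 0.0193, 0.0227 and 0.000978). The Lgals3 and Il1a calls were lost under 4 and 5 of 14 other settings, and those of Anxa1 and Cirbp under 1. Macrophage and neutrophil markers rose in the same contrast, as given above, and their part in these lists was not tested. Without the libraries rich in gut markers 1 library was left at 5 DPA. Fewer inducing genes, receptor and clearance genes and other alarmins were then called higher, as were fewer of all genes. Nothing is read from those calls.

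**Figure D4:**
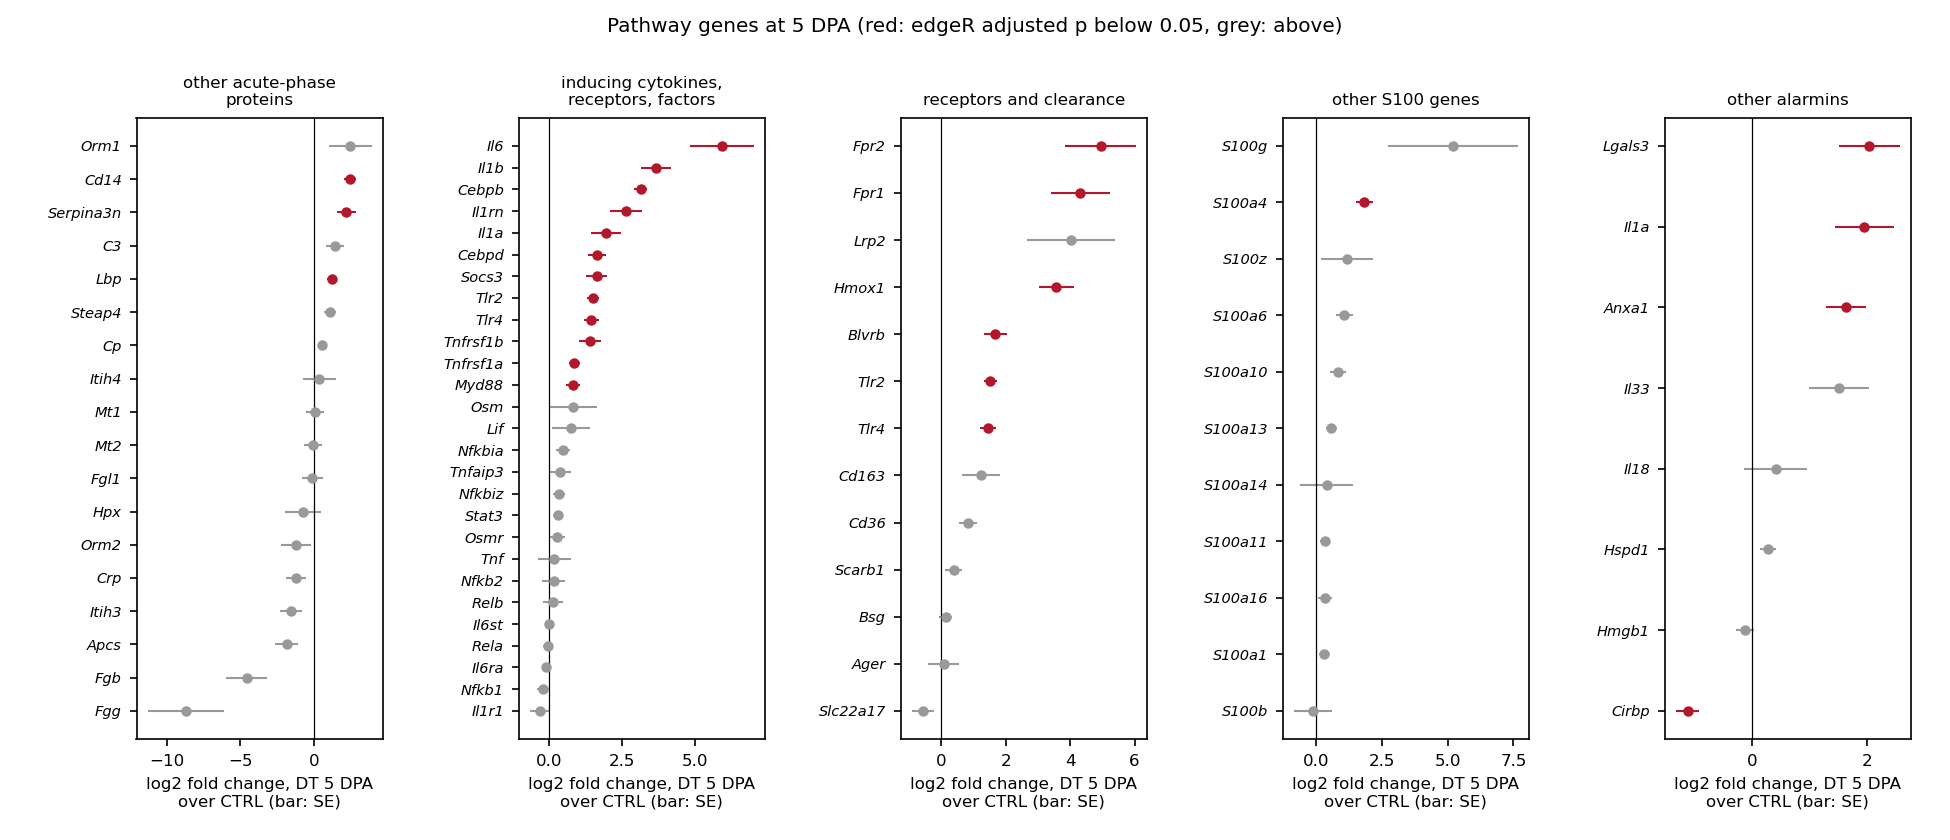
log2 fold change of DT 5 DPA over CTRL with its SE for the tested genes of 5 lists, in red where edgeR's adjusted p is below 0.05 and in grey otherwise. The called genes lie to the right of 0 in all panels, apart from Cirbp among the other alarmins.

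Between DT 30 DPA and DT 5 DPA where 30.5% of all genes were called (2914 higher and 2457 lower), each list had more genes lower than higher: 21 of 27 inducing genes fell and 1 rose, 9 of 13 receptor and clearance genes fell and 1 rose, 6 of 18 other acute-phase genes fell, 5 of 11 other S100 genes fell, and 5 of 8 other alarmins fell and 1 rose. The share of other acute-phase genes called was near that of all genes. Cebpb averaged 15.0 ± 2.88 CPM at 30 DPA and 127.7 ± 28.6 CPM at 5 DPA (SD, n = 4 each; edgeR adjusted p = 1.76e-10). Hmox1 averaged 8.18 ± 2.26 CPM at 30 DPA and 140.4 ± 102.9 CPM at 5 DPA (edgeR adjusted p = 2.35e-06). The complement gene C3 averaged 234 ± 166 CPM at 30 DPA and 1281 ± 323 CPM at 5 DPA (edgeR adjusted p = 0.00325), a call lost without the libraries rich in gut markers (0.254). Without the libraries rich in gut markers, which left 1 library at 5 DPA, fewer genes were called in each list and over the whole table. Nothing is read from those calls.

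DT 30 DPA was compared with CTRL, which also served in the contrast the genes were chosen on. Saa1, which passed the filter only through the libraries at 5 DPA, is left out of the counts in this and the later comparisons, and edgeR and DESeq2 called it in 0 of them. By edgeR 0 of 5 genes were called, against 0.233% of all genes. At an unadjusted edgeR p below 0.05 there were 2 (S100a9 and Saa3), against 25.3% of all genes, and DESeq2 called 0 of the 5 and 1849 genes in all. The Saa3 log2 fold change was 2.86 (SE 1.01, edgeR adjusted p = 0.0884), and it rests on replicate 1 at 24.3 CPM, the other 3 libraries lying between 0.948 and 2.11 CPM against 0.116 to 1.72 CPM in CTRL. Without DT 30 DPA replicate 1 it was 0.59, and without CTRL replicate 3 it was 3.52 and passed (edgeR adjusted p = 0.0462, within a range of 0.0462 to 0.686 over 14 other settings), a setting under which 4273 of all genes were called, against 41 with every library. S100a9 had a log2 fold change of 1.98 (SE 0.88, edgeR adjusted p = 0.158), with ranges of 1.98 to 9.03 CPM at 30 DPA and 0.492 to 2.16 CPM in CTRL that overlapped. S100a8, at 1.41 (edgeR adjusted p = 0.404), Hp, at 0.24 (0.855), and Lcn2, at -0.95 (0.514), lay further from the threshold, and the signs of Hp and Lcn2 turned when single libraries were left out. In the 5 lists 0 genes were called by edgeR, while DESeq2 called 9 of 27 inducing genes, 1 receptor gene and 1 alarmin lower. Without CTRL replicate 3 edgeR called 10 inducing genes lower and 1 higher.

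At 10 weeks all 7 genes were low in every group. Saa3 averaged 1.10 ± 0.786 CPM in DT SD, 0.411 ± 0.292 CPM in STZ SD and 0.126 ± 0.0581 CPM in CTRL SD, and 1.08 ± 0.753 CPM in DT HFD, 1.62 ± 1.56 CPM in STZ HFD and 0.430 ± 0.432 CPM in CTRL HFD (SD, n as above). Hp averaged between 0.605 and 2.10 CPM over these 6 groups, S100a8 between 0.176 and 1.76 CPM, and S100a9 between 0.615 and 4.70 CPM. Lcn2 averaged between 0.755 and 1.70 CPM in 5 of them and 8.31 ± 11.9 CPM in STZ HFD. Saa1 had at most 7 counts in a library (STZ HFD replicate 3) and Saa2 at most 2. With the groups ordered by their mean, the ranges of neighbours overlapped throughout for each gene, other than the step below DT 5 DPA for Saa3, Saa1, Hp, Lcn2 and S100a8. The genes were chosen as high at 5 DPA, and the share of all genes with such a step was not counted. Nothing is read from that step.

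DT SD was set against DT 30 DPA, and 0 of 5 genes were called by edgeR, against 0.0568% of all genes, while 3 (S100a9, Saa3 and Hp) had an unadjusted p below 0.05, as had 1939 of all 17616 genes. The log2 fold change of Saa3 was -2.69 (edgeR adjusted p = 0.251) and that of Hp was -2.04 (edgeR adjusted p = 0.256). Hp had 1.39, 0.791, 0.0842 and 0.215 CPM in DT SD, against 1.34 to 4.77 CPM at 30 DPA, and these ranges overlapped in 1 library of each group.

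The toxin-treated groups were then compared with their untreated group at 10 weeks. By edgeR 0 of 5 genes were called between DT SD and CTRL SD (0.0341% of all genes), between STZ SD and CTRL SD (0.00568%), between DT HFD and CTRL HFD (0.00568%) and between STZ HFD and CTRL HFD (0.471%). At an unadjusted p below 0.05 there were 0, 1 (S100a9), 0 and 2 (Lcn2 and Hp) in these comparisons, in the same order, against 7.95%, 11.3%, 11.9% and 13.7% of all genes. DESeq2 called 0 in the first 3 and 1, Lcn2, in the last, where it called 154, 689, 63 and 481 genes in all.

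That gene had the smallest adjusted p of any member in the comparisons at 10 weeks. Lcn2 had 26.2, 1.02, 3.48 and 2.58 CPM in STZ HFD, against 1.61, 0.539, 0.958 and 1.05 CPM in CTRL HFD. Replicate 1 stood far above the rest and the ranges of the groups overlapped. The log2 fold change was 3.01 (SE 0.85, edgeR adjusted p = 0.0929; DESeq2 adjusted p = 0.0111), and 1.17 without STZ HFD replicate 1 (edgeR adjusted p = 0.493); over 15 other settings the adjusted p ranged from 0.0111 to 0.493. Enterocyte markers summed to 179 CPM in that library, against 23.4 to 57.9 CPM in the other 3 of its group. Duct markers summed to 614 CPM there, against 147 to 497 CPM, and neutrophil markers to 30.5 CPM, against 7.91 to 23.1 CPM. Macrophage and monocyte markers (864.5 CPM) lay within the range of the others. The part of these markers was not tested. S100a13 and S100a4 were the 2 of 11 other S100 genes called higher in STZ HFD than in CTRL HFD (2.17- and 2.38-fold, edgeR adjusted p = 0.0057 and 0.0443), and the S100a13 and S100a4 calls were lost under 2 and 9 of 15 other settings.

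Diets and toxins were compared in the same fit. Between DT HFD and DT SD, where edgeR called 23.5% of all genes, 0 of 5 members were called, and 0 had an unadjusted p below 0.05, against 38.9% of all genes. Without DT HFD replicate 2 the genes called fell to 0, so that the background itself rests on that library. The smallest adjusted p was that of Hp (log2 fold change 1.44, edgeR adjusted p = 0.151). In the list of inducing genes 14 of 27 rose and 2 fell in DT HFD relative to DT SD, while beta cell markers fell for 6 of 8, lymphocyte markers rose for 6 of 10 and enterocyte markers rose for 5 of 10. The parts of these markers in that list were not tested.

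In the untreated mice, CTRL HFD was set against CTRL SD. S100a9 had 4.82, 2.00, 5.04 and 6.95 CPM in CTRL HFD, against 0.532, 0.948 and 0.364 CPM in CTRL SD. S100a8 had 1.05, 1.16, 2.62 and 2.18 CPM in CTRL HFD, against 0.339, 0.190 and 0 CPM in CTRL SD. Both genes rest on few counts, 15 to 86 in CTRL HFD and 0 to 11 in CTRL SD. They were picked after their values were seen. The share of all genes with ranges apart between these groups was not counted, so nothing is read from the ranges. Of 5 members 0 were called by edgeR, as were 0.0% of all genes. These 2 members had an unadjusted p below 0.05, against 2.49% of all genes, and DESeq2 called 0 members and 24 genes in all. The log2 fold changes were 2.94 for S100a9 (SE 0.97, edgeR adjusted p = 1.0) and 3.11 for S100a8 (SE 1.20, edgeR adjusted p = 1.0).

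In the other comparisons at 10 weeks edgeR again called 0 of 5 members: STZ HFD against STZ SD (0.136% of all genes), STZ SD against DT SD (2.56%) and STZ HFD against DT HFD (0.341%). Lcn2 was the 1 member with an unadjusted p below 0.05 in the first and in the last of these (log2 fold change 2.36 and 2.58, edgeR adjusted p = 0.168 and 0.164; 0.51 and 0.73 without STZ HFD replicate 1), and 0 members were under it in STZ SD against DT SD. The difference between the DT effects on the diets (0.0% of all genes called) and between the STZ effects (0.0%) had 0 members called and 0 and 1 (S100a9, log2 difference -2.999, edgeR adjusted p = 0.701) at an unadjusted p below 0.05. Over all genes the share at an unadjusted p below 0.05 was between 6.60% and 19.4% in these 5 comparisons. DESeq2 called 0 members in each of them, and likewise in DT SD against DT 30 DPA and DT HFD against DT SD.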

How the data were processed

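Islet RNA (RNeasy Mini) went into QIAseq stranded mRNA libraries, per the labels' protocols, and the submitters' processing notes name the assembly mm10. Neither labels nor headers name an aligner, a counter, its use of strand or the gene annotation. The deposited table holds total counts per gene, not normalized, for 34 libraries, per the file headers. The authors' TPM were used for ranks and for levels between genes, and the authors' RPKM were not used. The deposited column headed CPM holds values that do not add up to a common total and is treated as a score with an unexplained scaling, also not used.

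Counts were filtered with filterByExpr of edgeR 4.0.16 (R 4.3.3; count minimum 10, total minimum 15), scaled by TMM and fitted once over 33 libraries with edgeR's quasi-likelihood model, with group as its sole term. Contrasts between groups gave the 15 comparisons, with Benjamini-Hochberg adjustment over 17616 genes. CPM use the TMM-scaled library size, and correlations used log2 CPM with a prior count of 2 and 100000 permutations of libraries within their group, two-sided. The members, the gene lists and the comparisons were chosen with earlier results of these data known. Genes named beside the 7 members are the called list genes with the smallest adjusted p, up to 4 per list and comparison, and the 4 nearest genes of each member; not all are given, and the STZ HFD library described apart, the S100g value and the S100 genes in untreated mice were picked after their values were seen. Coordinates come from GENCODE M21 (99.26% of gene identifiers matched) and promoter sequences from RefSeq, build GRCm38.p6. Identity was taken over the bases that a pairwise alignment paired.

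Total counts ranged from 11083117 to 18918348, and the prior degrees of freedom from 1.63 to 3.11, so little was borrowed across genes in estimating the spread. No 2 libraries of a group agreed within counting noise (smallest chi-square per degree of freedom 27.27). Intervals and limits cover counting error only. Both the fit and the correlation test were tested on simulated data. The alternatives were DESeq2 size factors, no filter and a stricter one (1 CPM in 3 libraries and 50 counts in all), the DESeq2 1.42.0 Wald test, the compared groups alone, the replicate number as a block, each replicate left out, and, added after the data were seen, leaving out libraries over 500 CPM of enterocyte markers. Replicate numbers were not treated as pairs, since in 0 of 13 comparisons were all pairs' correlations over 0.1. That rule cannot show the samples to be unpaired. In DT 5 DPA against CTRL the same-numbered libraries correlated at 0.084, 0.4 and 0.647. A library titled CTRL HFD whose treatment label is DT entered no comparison.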

Additional observations from a re-analysis of the deposited data

Results flagged for a closer look

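Among 38 sets of 4 libraries (a gene in a group), 5 held a library set apart from the other 3 by Dixon's 95% criterion, which chance gives in about 1 in 20 sets of continuous values. In 3 of the 5 the other libraries were all at 0 counts, which meets the criterion by construction, so the number found is not set against that rate. Saa3 was at 24.26 CPM in DT 30 DPA replicate 1, against 0.948 to 2.11 CPM in the other libraries at 30 DPA. Lymphocyte markers summed to 7713 CPM in that library, against 1170 to 4536 CPM in the others. Macrophage and monocyte markers (1189 CPM, against 533 to 879 CPM) and adipocyte markers (159 CPM, against 50.3 to 102 CPM) were also highest there. Neutrophil markers (16.3 CPM) lay within the range of the others. The part of these markers was not tested. Lcn2 was at 26.15 CPM in STZ HFD replicate 1. Saa2 was at 0.3833 CPM in DT 30 DPA replicate 2 (6 counts), the library at 30 DPA with enterocyte markers at 3369 CPM, which also held 8 counts of Saa1. STZ SD replicates 1 and 4, with enterocyte markers at 11270 and 19750 CPM, held 0 counts of both genes. Saa2 was at 0.1277 CPM in CTRL HFD replicate 4 (2 counts), and Saa1 at 0.09193 CPM in STZ SD replicate 2 (1 count), both against 0 counts in the other libraries of the group and both at or under 3 counts.

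The library that entered no comparison, titled as CTRL HFD but with the treatment label DT, was above the range of CTRL HFD for 3 genes by the authors' TPM. Hp was at 5.817 TPM there, against 0.310 to 1.82 TPM in CTRL HFD. Lcn2 was at 1.547 TPM, against 0.443 to 1.08 TPM, and S100a9 at 27.08 TPM, against 8.27 to 26.0 TPM. Saa3, at 0.425 TPM, and S100a8, at 5.14 TPM, lay within the CTRL HFD range.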

How the results depend on the processing

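Of 1275 alternative values, 1210 kept their direction and their side of the threshold (for counts, within 1.5 times). Of the rest, 55 lost the threshold, 2 gained it, 5 changed sign or, for S100g, went to 0.0, and 3 counts moved. Members called between DT 30 DPA and CTRL numbered 0 or 1 when a replicate was left out, 1 (Saa3) without CTRL replicate 3. Between DT 30 DPA and DT 5 DPA, 3 were called without the libraries over 500 CPM of enterocyte markers, where 1 library at 5 DPA is assumed to vary like the other groups; S100a8, S100a9 and Saa1 were lost (edgeR adjusted p = 0.0893, 0.135 and 0.105). Between STZ HFD and CTRL HFD, DESeq2 called 1. In DT 30 DPA against CTRL, without a replicate, the Hp log2 fold change was between -0.271 and 1.27, and negative without DT 30 DPA replicate 1, CTRL replicate 2 or CTRL replicate 3, and that of Lcn2 between -1.38 and 0.544, the last without CTRL replicate 3. S100g, lower at 30 DPA than at 5 DPA, was at 0.0 without the enterocyte libraries. In DT 5 DPA against CTRL, Saa1 and Lcn2 missed the threshold without those libraries (edgeR adjusted p = 0.15 and 0.0984) and S100a8 without CTRL replicate 1 (0.0582). With the replicate number as a block, which leaves CTRL HFD replicate 5 without weight, 6, 6 and 0 members were called in DT 5 DPA against CTRL, DT 30 DPA against DT 5 DPA and DT 30 DPA against CTRL, as without the block, and the same-numbered samples correlated at -0.178 to 0.647. Correlated pairs numbered 1 at prior counts of 0.5, 2 and 5. Genes called over the whole table in DT 30 DPA against CTRL numbered 41, against 1849 by DESeq2, 259 with the stricter filter, 1 with no filter, and 0 to 4273 without a replicate. In DT 5 DPA against CTRL they numbered 949, against 320 with the compared groups alone, 329 without the enterocyte libraries, and 586 to 1269 without a replicate; the cause was not tested. Saa1 and Saa2 are limited by depth, with at most 58 counts in a library.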
